A study of Mus musculus with 6 samples.

Results

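Epithelial and supporting cell identity genes were followed in RNA of the mouse modiolus, the central bone of the cochlea around which the spiral ganglion neurons lie. The group holds 10 named genes: Tspan8 and Mal2, membrane proteins of epithelial cells; Cdh1 and Epcam, adhesion proteins; Krt8 and Krt18, paired keratins; and Sox2, Prox1, Fgfr3 and Hey2, genes used to mark supporting cells of the organ of Corti. They were chosen by name with the difference between degenerated and control libraries in these same data already known, so that difference is given for them as a description, without a test. Of the 10 genes, 8 had a row and all 8 were measured well enough to be fitted, out of 33676 genes with a row and 14118 fitted genes. Krt8 and Sox2 were not analysed here.

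The samples were modioli of wild-type male C57BL/6 mice treated at 8 weeks of age. The degenerated group received 1 g/kg kanamycin sulfate under the skin and, after 30 min, 0.4 g/kg furosemide into the abdominal cavity, a combination that destroys hair cells and is followed by the loss of spiral ganglion neurons, and was taken on day 30. The control group received saline. Each group had 3 libraries (control 1 to 3, degenerated 1 to 3), and nothing in the sources says whether a library was 1 animal or a pool. Whole dissected tissue was sequenced although the labels give spiral ganglion neuron as the cell type.

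Epithelial cells are sheets joined by adherens and tight junctions, with an apical face kept apart from the basolateral one by sorted membrane traffic. Cdh1 encodes E-cadherin of the adherens junction, Epcam a homophilic adhesion molecule, and Krt18 the type I keratin that assembles with Krt8 into filaments of simple epithelia. In the cochlea, the lining of the fluid spaces is epithelial, and supporting cells are the part of it that surrounds hair cells. Prox1 is a homeobox transcription factor that also marks lymphatic endothelium. The study's authors, citing earlier work, also list it among markers of neuronal identity kept by neurons induced from spiral ganglion cells. Which cells the Prox1 counts came from was not tested. Fgfr3 is a receptor for fibroblast growth factors needed for pillar cells, and Hey2 is a transcriptional repressor downstream of Notch and Fgf signals.

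The starts of 4 genes are shown because these genes span the 3 outcomes seen here: groups well apart (Tspan8), groups apart but with wide spread (Krt18), and groups that overlapped (Epcam and Hey2). The sequences come from RefSeq on GRCm38.p6, whose table held 8 of the 10 genes, without Mal2 and Cdh1. Capitals mark CAGGTG or its reverse complement CACCTG, the E-box bound by repressors of the Snail and Zeb families, searched on both strands. The last 13 bases of the Tspan8 window lie past the start of Tspan8-202 and are left out. Likewise, 36 bases of the Krt18 window and 18 of the Hey2 window lie inside a listed transcript and are left out. The printed Tspan8 bases lie before the starts of Tspan8-201, Tspan8-202 and Tspan8-203. Tspan8-204 starts earlier, at 115816832, so the Tspan8 window lies within its span.
Tspan8, chr10:115817034-115817270, plus strand: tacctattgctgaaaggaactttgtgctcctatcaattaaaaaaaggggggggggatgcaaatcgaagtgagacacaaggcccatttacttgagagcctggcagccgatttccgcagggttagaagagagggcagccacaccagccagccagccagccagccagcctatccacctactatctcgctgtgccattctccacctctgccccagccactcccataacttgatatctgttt
Krt18, chr15:102027966-102028179, plus strand: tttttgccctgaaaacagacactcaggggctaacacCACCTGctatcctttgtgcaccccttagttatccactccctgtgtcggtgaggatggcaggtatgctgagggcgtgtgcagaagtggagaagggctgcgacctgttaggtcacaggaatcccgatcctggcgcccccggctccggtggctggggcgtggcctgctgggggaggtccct
Epcam, chr17:87635729-87635978, plus strand: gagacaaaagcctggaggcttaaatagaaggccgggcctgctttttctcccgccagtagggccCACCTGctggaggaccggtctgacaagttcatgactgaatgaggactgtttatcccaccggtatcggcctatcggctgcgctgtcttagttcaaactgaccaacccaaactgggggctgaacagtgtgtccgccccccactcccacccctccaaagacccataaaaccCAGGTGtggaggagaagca
Hey2, chr10:30842802-30843033, minus strand: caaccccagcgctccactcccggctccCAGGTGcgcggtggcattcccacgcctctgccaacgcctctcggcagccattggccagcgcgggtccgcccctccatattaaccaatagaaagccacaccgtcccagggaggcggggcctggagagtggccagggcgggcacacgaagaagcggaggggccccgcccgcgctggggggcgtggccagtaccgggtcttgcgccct
Epcam held 2 matches, 187 and 19 bases before its start. Krt18 held 1 match, 214 bases before its start in the table, and Hey2 held 1, at 223 bases. None was found in the windows of Tspan8, Sox2, Prox1 or Fgfr3, and Krt8 held 1. Of all 32851 windows of 250 bases, 17.2% held a match, so a match is common. The grainyhead motif AACCGGTT was found in 0.116% of windows and in 0 of the 10 windows of these genes. A match describes letters in a window and says nothing on whether a factor binds there.

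Libraries held 12480876 to 15549319 counts, with the fewest in degenerated 3. The first principal component set control 2, control 3 and degenerated 3 apart from the other libraries, and these 3 were also the highest in blood markers. Replicates of a group had Pearson correlations of 0.913 to 0.948 across the fitted genes on the log2(CPM + 1) scale, where CPM is a count scaled to the total of its library. Libraries of different groups correlated at 0.919 to 0.942, so these correlations did not set the groups apart. Control 1 was closer to degenerated 1 (0.942) than to control 2 (0.913) or control 3 (0.923). Over all fitted genes, 2.73% passed the call rule, which asks for an unadjusted p below 0.01 in the quasi-likelihood test of edgeR and a log2 fold change beyond 0.2 in size; 2.01% did so as higher and 0.715% as lower in degenerated libraries. At a Benjamini-Hochberg adjusted p under 0.05 the share was 0%, or 0 genes in edgeR (1367 genes at an unadjusted p under 0.05), while DESeq2 gave 263 higher and 120 lower. All 3 degenerated values were above all 3 control values in 10.3% of genes and below them in 7.35%.

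Of the 8 genes, 4 lay apart, all with the degenerated libraries above (Tspan8, Mal2, Cdh1 and Krt18, against the 10.3% of all genes), and 0 with them below. The other 4, Epcam, Prox1, Fgfr3 and Hey2, overlapped. The call rule was passed by 3 of them, Tspan8, Mal2 and Cdh1, against 2.01% of all genes called higher, a count from which nothing is read because the same contrast chose the genes. The median log2 fold change of the 8 was 0.52, and 6 were positive, beside a median of -0.003 and 49.7% positive over all fitted genes. Since RNA of whole tissue was measured, a change in the number of cells of a type and a change in RNA per cell cannot be told apart.

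**Figure D1:**
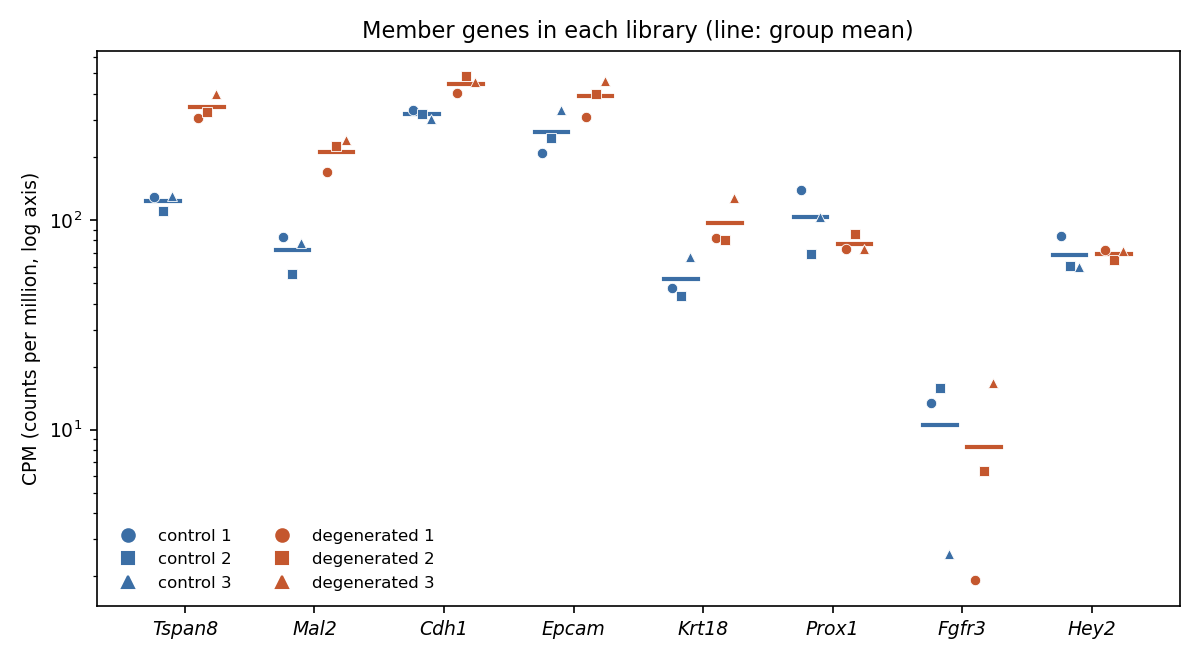
CPM (log axis) of the 8 genes, with a symbol for each of the 3 control (blue) and 3 degenerated (orange) libraries and a line at each group mean. Tspan8 and Mal2 lay far apart between the groups, from 123 to 345 CPM and from 72.2 to 212 CPM in the mean, while Prox1, Fgfr3 and Hey2 overlapped.

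The membrane proteins had the largest differences of the 8 genes. Tspan8, a tetraspanin of epithelial plasma membranes (chr10:115816832-115849893, plus strand, GRCm38), was measured at 129, 110 and 130 CPM in the controls and at 306, 328 and 401 CPM in the degenerated libraries. The lowest degenerated library was far above the highest control. The group means were 123 ± 11.1 and 345 ± 49.7 CPM (SD, n = 3), which gives 1.49 ± 0.14 (SE) on the log2 scale, or 2.80-fold. Mal2, a proteolipid of transcytosis to the apical surface (chr15:54571192-54602847, plus strand), was at 83.4, 55.3 and 78.0 CPM in the controls and at 169, 226 and 241 CPM in the degenerated libraries. Again each degenerated library was above each control by a wide margin. The means were 72.2 ± 14.9 and 212 ± 37.7 CPM, a log2 fold change of 1.55 ± 0.21 (SE), or 2.93-fold. With any 1 library left out, the log2 fold change stayed within 1.36 to 1.56 for Tspan8 and within 1.39 to 1.68 for Mal2.

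The adhesion proteins differed by less. Cdh1, E-cadherin (chr8:106603351-106670246, plus strand), was at 336, 320 and 304 CPM in the controls and at 402, 487 and 454 CPM in the degenerated libraries. The groups did not overlap, and the controls were the tightest of any of the 8 genes, with a coefficient of variation of 4.99%. Its log2 fold change was 0.48 ± 0.11 (SE), or 1.40-fold. The call was lost in 4 of the 6 fits with 1 library left out and remained without control 1 or without degenerated 1, with log2 fold changes between 0.41 and 0.54. Epcam (chr17:87635979-87651129, plus strand) was at 209.9, 247 and 333 CPM in the controls and at 309, 399 and 460 CPM in the degenerated libraries. Control 3 lay above degenerated 1, so the groups overlapped in spite of a log2 fold change of 0.57 ± 0.22 (SE), larger than that of Cdh1. Only 1 of the 5 annotated Epcam transcripts was listed, against 2 of 3 for Cdh1.

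Of the keratins, Krt18 (chr15:102028180-102032027, plus strand) was at 47.2, 43.6 and 66.7 CPM in the controls and at 82.3, 79.9 and 127 CPM in the degenerated libraries. The groups lay apart, and replicate 3 was the highest in each. The means were 52.5 ± 12.4 and 96.4 ± 26.4 CPM (SD, n = 3), and the log2 fold change was 0.88 ± 0.26 (SE), or 1.84-fold. It did not meet the call rule in the edgeR fit over all genes or in any of the 6 fits with 1 library left out, and it met the rule in DESeq2 and in the edgeR fit of genes with every transcript listed. Gm5200, a gene with 90.5% identity to Krt18 over 1267 bases, had no row, and no source used here says how reads common to both were counted.

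The genes of supporting cells overlapped between the groups, all 3 of them. Prox1 (chr1:190118035-190170714, minus strand) was at 139, 68.6 and 104 CPM in the controls and at 72.6, 86.2 and 73.0 CPM in the degenerated libraries. The degenerated libraries lay close together, inside the range of the controls, with an SD of 7.74 CPM against 35.4 CPM. Its log2 fold change was -0.43 ± 0.27 (SE) and ran from -0.66 to -0.17 with 1 library left out. Hey2 (chr10:30832359-30842801, minus strand) was at 84.4, 60.4 and 59.5 CPM in the controls and at 71.9, 64.7 and 70.9 CPM in the degenerated libraries. All 3 degenerated values lay between the lowest and the highest control, and the log2 fold change was 0.02 ± 0.18 (SE), with a range of -0.07 to 0.20 when 1 library was left out. Fgfr3 (chr5:33721674-33737068, plus strand) was counted over 5 of its 17 annotated transcripts. These counts were low and uneven, at 204, 223 and 40 in the controls and 28, 90 and 212 in the degenerated libraries. Control 3 and degenerated 1 were low and degenerated 3 was as high as the other controls. The means were 10.6 ± 7.06 and 8.31 ± 7.59 CPM, and the log2 fold change of -0.35 ± 0.94 (SE) ranged from -1.36 to 0.11 when 1 library was left out.

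**Figure D2:**
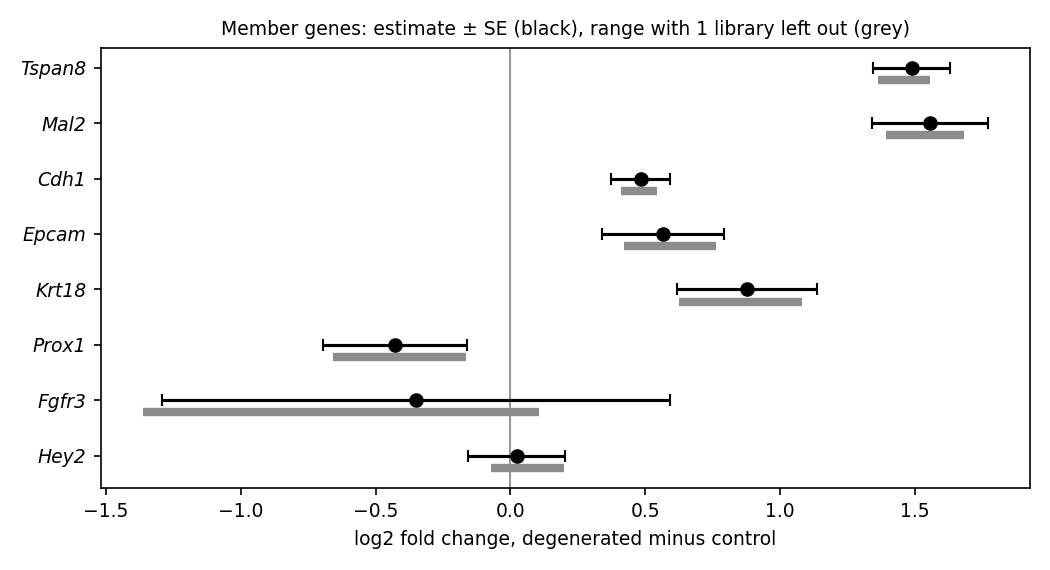
Log2 fold change (degenerated minus control) of the 8 genes, with the estimate and its standard error in black and the range over the 6 fits with 1 library left out in grey. Tspan8 at 1.49 and Mal2 at 1.55 stand to the right, Cdh1, Epcam and Krt18 lie between 0.48 and 0.88, and the range of Fgfr3, from -1.36 to 0.11, spans 0.

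Antisense genes overlap 3 of these genes, and the library kit does not mark strand, so reads of both cannot be told apart. The antisense gene of Tspan8, 4930422I22Rik, held at most 20 counts in a library, where Tspan8 held at least 1563. Prox1os, antisense to Prox1, held 92, 72 and 128 counts in the controls and 59, 60 and 48 in the degenerated libraries, lower in all 3. G630022F23Rik, across from Fgfr3, held 12 to 56 counts, which is not small against the 28 to 223 counts of Fgfr3 itself, and 281 bases of it match an Fgfr3 transcript at 100%. Another gene, Nvl, matched an Fgfr3 transcript at 92.0% over 497 bases and held 85 to 112 counts.

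Levels of different genes can be set side by side only per length. Here they cover listed transcripts only: 5 of 17 for Fgfr3, 1 of 5 for Epcam, 1 of 2 for Hey2 and 2 of 3 for Cdh1. The order may therefore depend on transcripts that were not listed. In the controls, in CPM per kilobase of transcript, Epcam was highest at 129 ± 31.0, then Tspan8 at 99.3 ± 8.97, Cdh1 at 72.4 ± 3.61, Krt18 at 36.5 ± 8.62, Hey2 at 26.7 ± 5.54, Mal2 at 24.5 ± 5.06, Prox1 at 13.6 ± 4.64 and Fgfr3 at 3.40 ± 2.27 (SD, n = 3). Of neighbours in this order, the control libraries of Tspan8 and Cdh1, of Cdh1 and Krt18, of Prox1 and Fgfr3 and, narrowly, of Mal2 and Prox1 did not overlap, and those of the remaining neighbours did. In the degenerated libraries Tspan8 was first at 278 ± 40.0 CPM per kilobase, above Epcam at 191 ± 37.2 and Cdh1 at 101 ± 9.65. Mal2 at 71.9 ± 12.8 had come level with Krt18 at 67.1 ± 18.4, which placed Hey2 at 27.1 ± 1.55 below both. Prox1 at 10.1 ± 1.01 and Fgfr3 at 2.67 ± 2.44 were again the lowest.

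Ratios between 2 genes of the same library do not depend on its depth. The log2 ratio of Tspan8 to Mal2 was 0.63, 1.00 and 0.74 in the controls and 0.86, 0.54 and 0.74 in the degenerated libraries, so the groups overlapped. The ratio of Cdh1 to Epcam also overlapped, at 0.31 ± 0.41 in the controls and 0.21 ± 0.21 in the degenerated libraries (SD, n = 3). In contrast, the log2 ratio of Tspan8 to Cdh1 went from -1.38 ± 0.15 to -0.38 ± 0.19, a difference of 1.00, and that of Mal2 to Cdh1 differed by 1.08, both without overlap. Tspan8 and Mal2 thus changed unequally with the adhesion genes within libraries: against Epcam the differences were 0.91 and 0.99, also without overlap. Against Hey2, the log2 ratio differed by 1.44 for Tspan8, 1.52 for Mal2, 0.83 for Krt18 and 0.44 for Cdh1 without overlap, while that of Epcam overlapped between the groups.

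Transcript by transcript, 18 of the 38 annotated transcripts of the 10 genes were listed, and 16 of them were measured well enough to be fitted. All transcripts were listed for Tspan8, Mal2, Krt18 and Prox1, and 5 of 17 for Fgfr3. Tspan8-201 made up 87.4% of the Tspan8 counts, from 84.4% to 89.1% in single libraries, and had a log2 fold change of 1.49 ± 0.15 (SE). The less abundant Tspan8-202 and Tspan8-203 had the same direction, with 1.11 ± 0.28 and 1.32 ± 0.32, all 3 without overlap between the groups. Tspan8-204 had only 4 to 26 counts and overlapped, at 0.40 ± 0.68. The Tspan8 difference was thus present in each transcript with more than a few counts. Mal2, Epcam, Krt18 and Hey2 had 1 listed transcript each, and Cdh1-201 held 99.3% of Cdh1 counts, with a log2 fold change of 0.44 ± 0.10 in the transcript fit.

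The transcripts of Prox1 and Fgfr3 were less even. Prox1-202 held 93.9% of Prox1 counts and had a log2 fold change of -0.46 ± 0.26 (SE), with overlapping groups. Prox1-203 held 172, 1 and 11 counts in the controls and 0, 53 and 0 in the degenerated libraries, a scatter in which no direction could be read. For Fgfr3, the full-length Fgfr3-209 held 174, 185 and 5 counts in the controls and 10, 35 and 147 in the degenerated libraries. It thus made up 85.3%, 83.0% and 12.5% of the Fgfr3 counts in the controls and 35.7%, 38.9% and 69.3% in the degenerated libraries. The retained-intron transcripts Fgfr3-206 and Fgfr3-207, with 0 to 34 counts, filled most of the remainder where Fgfr3-209 was low. The libraries low in the summed Fgfr3 counts were those in which Fgfr3-209 was low, in both groups. Fgfr3-209 made up 69.8% of that sum, so nothing further is read from this. Fgfr3 transcripts that were not listed could not be followed.

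**Figure D3:**
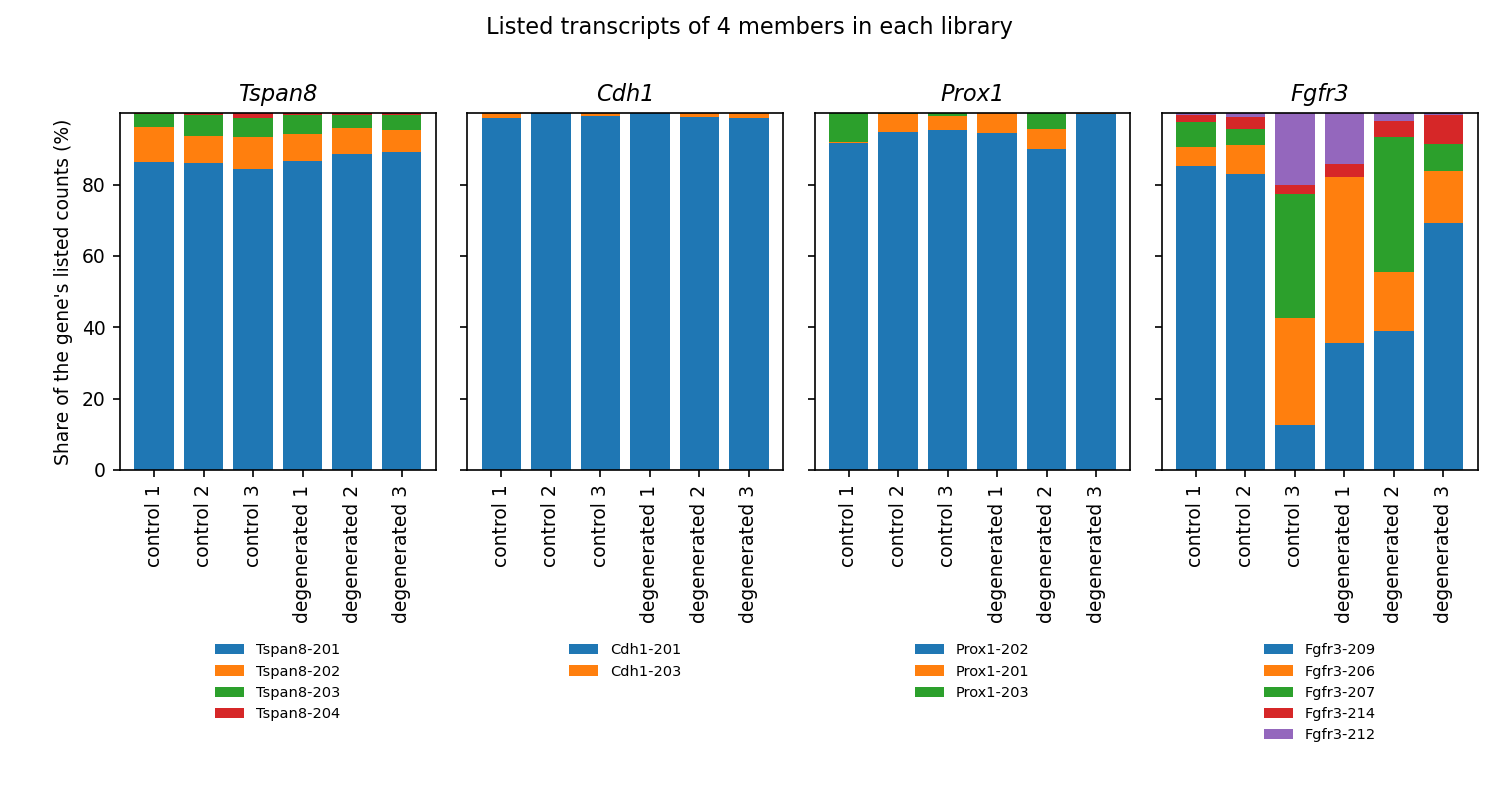
Share of a gene's listed counts (percent) held by each listed transcript in each of the 6 libraries, for the 4 genes with more than 1 listed transcript. Tspan8, Cdh1 and Prox1 rested on a single transcript in every library (at least 84.4% for Tspan8-201), while the share of Fgfr3-209 ran from 12.5% in control 3 to 85.3% in control 1.

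The mean centred log2(CPM + 1) of the 8 genes was -0.09, -0.35 and -0.35 in the controls and -0.05, 0.27 and 0.56 in the degenerated libraries. By this mean, degenerated 1 was the lowest of its group and close to control 1, and degenerated 3, the library with the fewest counts, was the highest. The mean includes Fgfr3, with 204 counts in control 1 and 28 in degenerated 1. The median over the 8 genes was -0.36, -0.35 and -0.25 in the controls and 0.08, 0.27 and 0.70 in the degenerated libraries. By the median, control 1 and degenerated 1 were thus not close. The mean profile over the 6 libraries was compared with 8414 genes with a mean of at least 10 CPM. The nearest by root mean square distance were Snx9 (0.102), Fubp1 (0.108), E2f5 (0.114), Rab25 (0.116) and Ccnd1 (0.118), in log2 units. Ccnd1, cyclin D1, was at 62.2, 48.1 and 63.5 CPM in the controls and at 67.9, 85.8 and 104 CPM in the degenerated libraries. Rab25, a small GTPase of apical recycling in epithelial cells, was at 30.7, 27.3 and 30.1 CPM and at 40.8, 43.7 and 51.1 CPM. All 5 had the degenerated libraries above the controls, against 10.3% of all genes. The profile that chose them does so too, so nothing is read from their direction.

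Related genes were followed in lists set by function rather than by how they moved, though with earlier results of these data known. Over 4 epithelial lists (junctions and polarity, keratins, transcription and splicing regulators, apical traffic and surface proteases), 43 of 64 genes were fitted; 38 had a positive and 5 a negative log2 fold change, with a median of 0.52. Of these, 7 passed the call rule as higher (16.3%, against 2.01% of all genes) and 0 as lower, and 20 lay with the degenerated libraries above (against 10.3%). None had an adjusted p under 0.05 in edgeR. Over 3 lists tied to supporting cells (identity, Notch pathway, Fgf pathway), 47 of 69 genes were fitted, with a median of 0.14. In edgeR 1 passed as higher (2.13%) and 0 as lower, against 4 and 0 in DESeq2. Of the 47, 8 lay with the degenerated libraries above (against 10.3% of all genes) and 2 below (against 7.35%).

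Junction genes held the most calls, 4 of 21 fitted, with a median log2 fold change of 0.63. Cldn9, a claudin of the tight junctions of the inner ear epithelium, rose from 206 ± 13.8 to 439 ± 88.5 CPM (log2 fold change 1.09 ± 0.16, SE), and the call remained in all 6 fits with 1 library left out. Dsp, the desmosome protein desmoplakin, rose from 46.8 ± 4.90 to 89.2 ± 15.5 CPM (0.93 ± 0.18), and Ildr1, of tricellular junctions, from 29.8 ± 2.94 to 54.6 ± 14.0 CPM (0.87 ± 0.24), the latter in only 1 of the 6 fits. Ctnnd1, the p120 catenin that binds E-cadherin, was at 27.9, 25.7 and 25.7 CPM in the controls and at 237, 61.3 and 419 CPM in the degenerated libraries. Its degenerated libraries differed widely, 17 of its 30 transcripts were listed, and its call held in 2 of the 6 fits. Calls outside the junction list included Tfap2a, a transcription factor low at 2.40 ± 0.765 and 5.93 ± 0.349 CPM, and Rab25, with a log2 fold change of 0.62 ± 0.17 (SE). The calls of Tfap2a and Rab25 were lost in each of the 6 fits.

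In the list of epithelial keratins Krt19 was the only gene fitted, with a log2 fold change of 0.17 ± 0.28 (SE) and overlapping groups. Of the factors of the mesenchymal transition, several of which repress Cdh1 in other settings, edgeR called 0 of 6 and DESeq2 called 1, Cdh2, as lower. The smallest p-values among them were those of Cdh2, N-cadherin, at -0.41 ± 0.13, and Snai2 at -0.95 ± 0.37, a low gene with 36 to 119 counts. Both lay with the degenerated libraries below, 2 of the 6 against 7.35% of all genes. Of the 6, 4 had a negative and 2 a positive log2 fold change. The positive ones were Zeb1 at 0.08 ± 0.16 and Zeb2 at 0.57 ± 0.60 (SE), both with overlapping groups.

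In the supporting cell lists, the only call in edgeR was Etv5, an ETS factor induced by Fgf signals, from 34.7 ± 4.45 to 55.9 ± 5.18 CPM (log2 fold change 0.69 ± 0.17, SE), which was lost in each of the 6 fits with 1 library left out. Among 18 fitted genes of supporting cell identity edgeR called 0 and DESeq2 called 2, Gjb2 and Lgr6, while 14 were positive. Gjb2, the gap junction protein connexin 26, was at 1105 ± 58.7 and 1415 ± 122 CPM (0.36 ± 0.11) and Lgr6, a receptor for R-spondins, at 22.1 ± 7.22 and 39.9 ± 4.33 CPM (0.85 ± 0.27), both without overlap between the groups. Of 12 fitted Notch pathway genes, where Hey2 belongs, edgeR and DESeq2 called 0, with a median log2 fold change of 0.03, Maml2 at 0.63 ± 0.22 and Rfng at -0.56 ± 0.27. Fgf receptors other than Fgfr3 overlapped between the groups, with log2 fold changes of 0.21 for Fgfr1, -0.60 for Fgfr2 and 0.05 for Fgfr4.

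**Figure D4:**
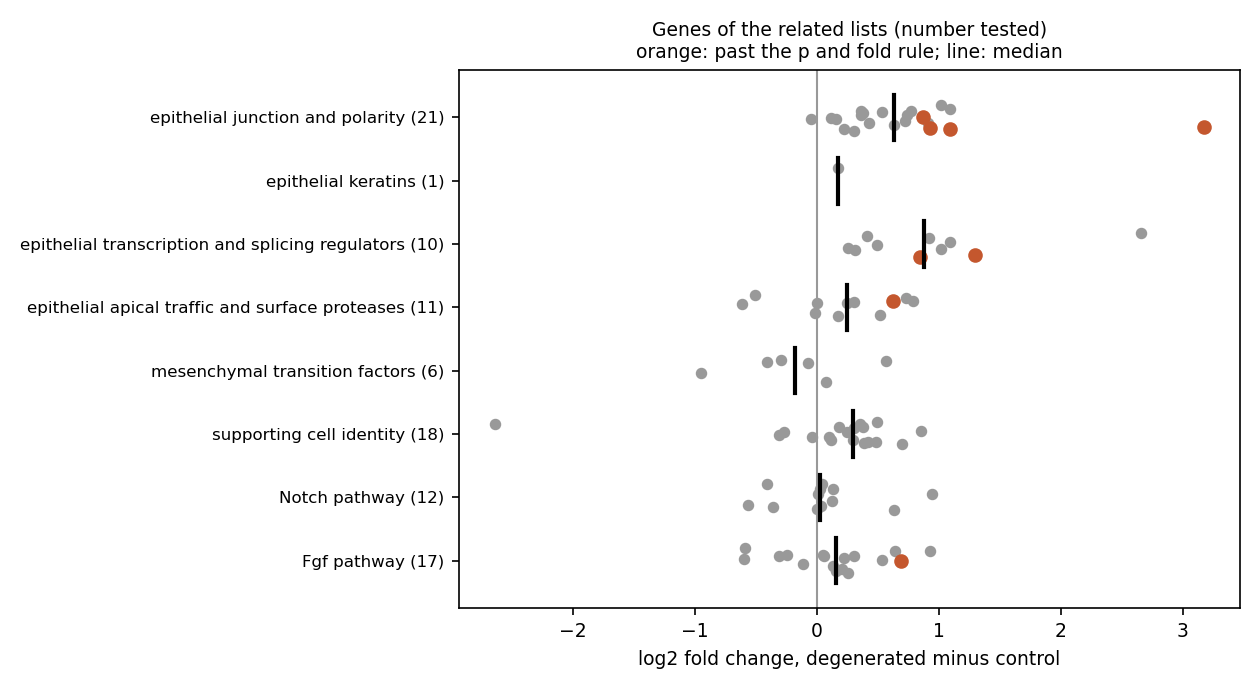
Log2 fold change (degenerated minus control) of each fitted gene of 8 related lists, with genes past the call rule in orange, other genes in grey and a line at each list's median. The medians of the junction (0.63) and transcription and splicing (0.88) lists lie to the right of 0, and those of the Notch (0.03) and Fgf (0.16) lists close to it.

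Marker lists of other cells in or around the modiolus were summed per library to set beside these values. Hair cell markers were at 768 to 1077 CPM in the controls and 528 to 615 CPM in the degenerated libraries, and Chrna9 was at 0. Ocm, oncomodulin of outer hair cells, had the largest difference, at 139 to 173 and 0.788 to 3.89 CPM. Of the 10 fitted hair cell markers, 4 lay with the degenerated libraries below and 6 overlapped. Myo7a had the only positive log2 fold change, with means of 68.6 ± 34.7 and 75.9 ± 13.2 CPM (SD). Neuron markers, with Calb2 and Snap25 the highest per length, were at 12550 to 16123 CPM and 7326 to 11041 CPM. Neurons were thus well represented in all libraries, and the sums of both lists were lower in the degenerated ones. Of the 12 fitted neuron markers, 7 lay with the degenerated libraries below (against 7.35% of all genes) and 1 above (against 10.3%), and 4 overlapped. Their log2 fold change was negative in 10 and positive in 2. Schwann and satellite cell markers overlapped at 5458 to 9653 and 4826 to 7627 CPM, which shows that the tissue was not neurons alone.

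Other epithelia that carry these genes gave less uniform values. Markers of the marginal cells of the stria vascularis, led by Slc12a2 and Atp1b2, were at 1503 to 1924 CPM in the controls and 1909 to 2606 CPM in the degenerated libraries, overlapping only narrowly. Stratified squamous epithelium was low at 11.9 to 22.0 and 14.9 to 21.1 CPM, with Krt15 at 0 in every library. Markers of Reissner's membrane, of which 2 of 4 had a row, were at 15.7 to 31.5 and 18.1 to 35.6 CPM. Middle ear epithelium, of which 6 of 10 markers had a row, overlapped at 259 to 1143 and 91.1 to 610 CPM. Its highest markers were Ltf and Reg3g, Tekt1 was at 0, and Foxj1, Dnah5, Bpifb1 and Scgb1a1 had no row. The sum is thus not read as the amount of this epithelium, and which cells the Ltf counts came from was not tested. Lymphatic endothelium, which carries Prox1, was at 31.7 to 52.4 and 33.7 to 63.2 CPM, and blood vessel endothelium overlapped as well, with 94.0 to 119 CPM over all libraries. The summed level of the junction list, 1031 to 1123 CPM in the controls and 1543 to 1998 CPM in the degenerated libraries, did not overlap. This was not particular to junction genes. The supporting cell identity list (3295 to 3747 and 4150 to 5044 CPM) and the Fgf list (1661 to 1912 and 1930 to 2117 CPM) did not overlap either. The sum of the 4 epithelial lists did overlap, at 3749 to 4223 and 4012 to 5474 CPM. The part of cell composition in the results for Tspan8, Mal2, Cdh1 and Krt18 was not tested.

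Blood and muscle differed between libraries within groups. Blood and bone marrow markers, led by Hbb-bs and Hba-a1, were at 4611, 37931 and 19882 CPM in the controls and at 5558, 3573 and 14356 CPM in the degenerated libraries, and skeletal muscle markers reached 351 CPM in control 3 and at most 5.15 CPM elsewhere. Control 2 was the lowest control for Tspan8, Mal2 and Krt18 and the highest in blood. For Cdh1 the lowest control was control 3 (304 CPM), and for Epcam it was control 1 (209.9 CPM), the control lowest in blood. The part of blood in these values was not tested.

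**Figure D5:**
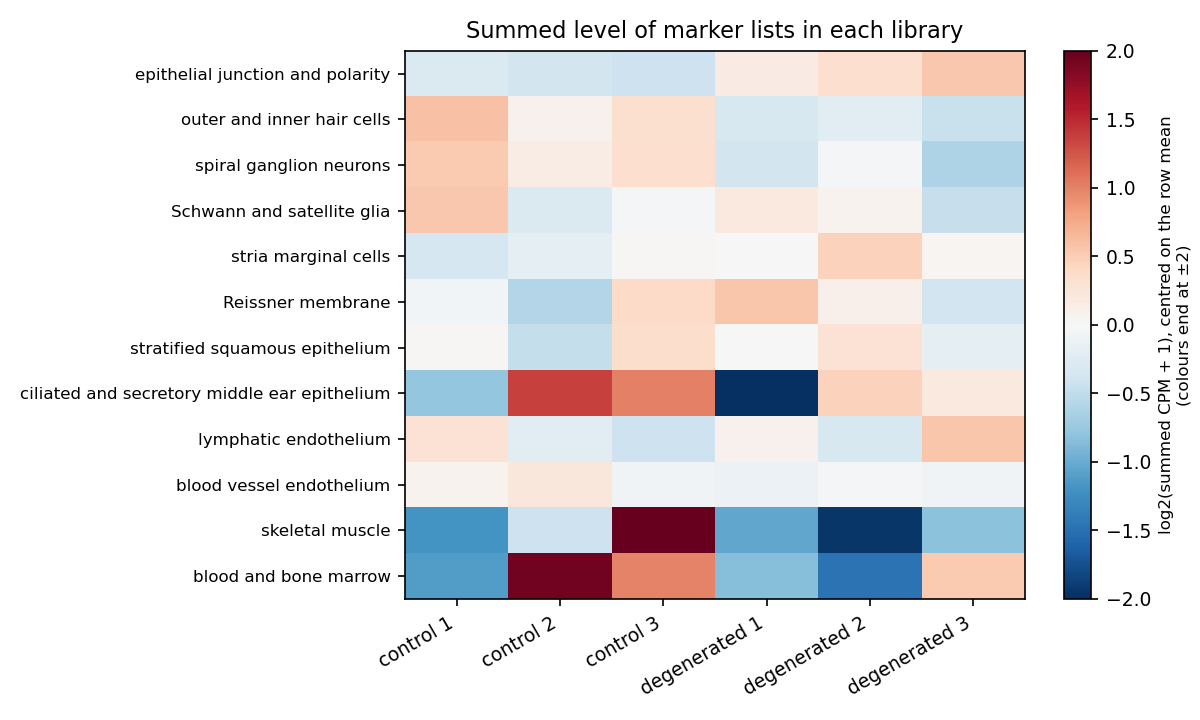
Summed CPM of the junction list and 11 marker lists in the 6 libraries, as log2(summed CPM + 1) centred on each row's mean, with the colours ending at -2 and 2. The junction row is below its mean in the controls and above it in the degenerated libraries, the hair cell and neuron rows run the other way, and blood and middle ear vary within both groups.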

How the data were processed

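RNA of the modiolus was sequenced in 3 control and 3 degenerated libraries. The authors deposited raw counts per Ensembl transcript, without normalization, for 65535 transcripts. Their methods name Hisat2 2.1.0 and StringTie 1.3.3b, while the submitters' processing notes list Bowtie 0.12.2 with builds mm8 and mm10, and no source used here names the step that gave the counts. The methods and the labels also name different RNA extraction reagents. Of the transcripts, 65272 (99.6%) matched GENCODE M21 (GRCm38), and the 263 others, with 0.125% of counts, were left out. The list holds part of the transcripts of many genes: 17789 of 33676 genes had every annotated transcript listed.

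Counts were summed over a gene's listed transcripts, filtered by filterByExpr, scaled by TMM (factors of 0.983 to 1.02) and fitted with the robust quasi-likelihood F test of edgeR 4.0.16 (R 4.3.3) on all 6 libraries without covariates, over 14118 genes; 26065 transcripts were fitted as deposited in the same way. Standard errors were derived as the absolute log2 fold change divided by the root of F. CPM use the TMM factors. A gene was called where the unadjusted p was below 0.01 and the log2 fold change exceeded 0.2 in size; an adjusted p is Benjamini-Hochberg over all fitted genes. Labels do not say that libraries came from separate animals, so p-values measure the spread between these libraries, which may be technical. No pair of libraries was a duplicate.

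The members and the gene lists were chosen with earlier results of these data known. Every member was named. For each related list, genes past the call rule were named (up to 4 per direction), or else the 2 with the smallest p. In each marker list, genes at 0 and the 2 highest per length were named. The 5 genes nearest to the members' mean profile were named as well. Zeb1, Zeb2, the Fgf receptors, Ocm and the other cells' genes given by name beyond this were chosen after their values were seen. Results for some genes that this rule names are not reported here. Close copies were sought with blastn at 90% identity over at least 200 bases. Alternatives were DESeq2 1.42.0, edgeR's exact test, scaling by RLE or the upper quartile, a filter at a mean count of 10 or none at all, the replicate number as a block, each library left out, and only genes with every transcript listed. The steps were tested on simulated data.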

Additional observations from a re-analysis of the deposited data

How the results depend on the processing

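Of the members, Tspan8 and Mal2 met the call rule under every alternative that was run, and Cdh1 lost it in edgeR's exact test, with the replicate block and in 4 fits with 1 library left out. With the block 4 members were called, Epcam and Krt18 in place of Cdh1, and with DESeq2 4, Krt18 in addition. Over all genes, 284 higher and 101 lower calls became 479 and 306 with DESeq2, 160 and 58 with the replicate number as a block, and 82 and 53 over genes with every transcript listed, a fit that holds only 3420 genes; with 1 library left out they ran from 144 to 339 and from 76 to 158, fewest higher without degenerated 2 and most lower without control 1. The 8 higher and 0 lower calls in the related lists became 17 and 1 with DESeq2, 5 with upper-quartile normalization, 4 with the block and 4 over complete genes, and ran from 3 to 7 and from 0 to 0 with 1 library left out: 5 without control 1, 3 without control 2, 3 without control 3, 7 without degenerated 1, 3 without degenerated 2 and 4 without degenerated 3. The 3 members called ran from 2 to 3, and their median log2 fold change of 0.52 from 0.45 to 0.62; it was 1.17 over the members with every transcript listed. Where the construction of an alternative does not show it, the cause was not tested. Apart from Fgfr3 and Hey2 among the genes, no member changed sign.

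Replicate numbers did not pair the libraries: deviations from the group means correlated at 0.160, -0.090 and 0.067 for numbers 1 to 3, so results with the block are given here only. Scaling moved the median of all genes by little, from -0.003 to -0.017 at most. No direction is read for Fgfr3, Tspan8-204, Cdh1-203, Prox1-201 and Prox1-203, whose counts were too few and uneven.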
